A study of Arabidopsis thaliana with 36 samples.

Results

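The UDP-glycosyltransferase genes of Arabidopsis thaliana were followed through the first hours of simulated shade. Members were the genes whose description in the authors' deposited hypocotyl table contains UDP-glycosyltransferase, UDP-glucosyltransferase or UDP-glucosyl transferase, in capitals or not. There were 104 of them among the 33602 genes counted and the 20957 genes listed in the authors' deposited table. RNA was sequenced from hypocotyls and cotyledons of 5-day-old Col-0 wild-type seedlings grown under 16 h of light and 8 h of dark, each sample holding the organs of 50 seedlings from a single plate. Low R/FR seedlings were moved, 2 h after lights on, to light with a low ratio of red to far-red, which mimics reflection from neighbouring leaves, and were taken after 15, 45, 90 and 180 min. High R/FR seedlings stayed in the starting light and were taken at the same times and at 0 min. Each of the 18 groups of organ, light and time had 2 libraries, 36 in all, and no group carried a mutation, transgene or chemical. Because the labels record no separate cultures or days, the p-values measure the spread between these samples, which may be technical. In organ samples such as these, fewer cells of a type and less RNA per cell cannot be told apart.

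UDP-glycosyltransferases move a sugar from a UDP-sugar onto a small acceptor molecule. In plants, family 1 of these enzymes (UGT) conjugates hormones, flavonoids, phenylpropanoids, glucosinolate precursors and foreign chemicals, which changes their activity, solubility and place of storage. Auxin and cytokinin can be inactivated this way, flavonols and hydroxycinnamates are stored as glycosides, and the bond is in some cases reversible. A UGT carries near its C terminus the plant secondary product glycosyltransferase (PSPG) box, the segment that holds the UDP-sugar.

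The description rule gathered more than that family. Of the 104 members, 82 had a UGT name and 22 did not. Those without one included the starch granule enzyme GBSS1, which makes amylose, the trehalose-phosphate synthase-like protein TPS6, the galactolipid synthase DGD1 and genes known by locus number alone. All 6 residues of the histidine-to-serine core of the PSPG box were found in the translated coding sequence of 63 members, and at least 5 of the 6 in 77, of which 73 were UGT-named. Most members were short genes, 46 with 1 coding exon and 36 with 2, and 17 of the 22 with more than 2 lacked even a 5-residue match. Of the members without a UGT name, 4 held at least 5 of the 6 residues, so the label describes the UGT-named members better than the others, which share the phrase.

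The coding windows around the PSPG core are shown for members on which the results below turn. They were read 5′ to 3′ on the coding strand from the TAIR10.1 assembly, and the capitals mark the 18 bases of the core. The positions are chr1:7895353-7895400 (minus strand) for UGT85A2, chr1:10816045-10816092 (plus) for UGT78D1, chr3:5619727-5619774 (minus) for UGT88A1, chr2:11961077-11961124 (minus) for UGT86A2 and chr5:1767022-1767069 (plus) for UGT76C2. UGT76C2 stands for the looser matches, with 5 of the 6 residues.
UGT85A2: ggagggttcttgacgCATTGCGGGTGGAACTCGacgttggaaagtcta
UGT78D1: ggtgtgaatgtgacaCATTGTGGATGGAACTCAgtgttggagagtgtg
UGT88A1: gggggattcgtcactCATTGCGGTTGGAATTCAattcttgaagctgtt
UGT86A2: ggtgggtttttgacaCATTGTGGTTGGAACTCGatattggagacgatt
UGT76C2: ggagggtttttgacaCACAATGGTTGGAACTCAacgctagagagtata

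A further pair of sequences belongs to UGT86A2 and UGT88A1, which were called in both organs at 45 min. That was the earliest time with calls in the edgeR fit to all 36 libraries. The 250 bases before the RefSeq gene start were read from TAIR10.1 and searched on both strands for CACGTG (the G-box, which reads the same on both strands) and CACATG (read as CATGTG on the other strand), motifs that bHLH transcription factors such as PIFs can bind. CACGTG was present in 6.49% of 27443 promoters of this length and in 8 of the 104 members (7.69%). CACATG was present in 11.1% of all promoters and in 25 members (24%). A match describes letters in this window and does not show a bound site. The UGT86A2 window, chr2:11963441-11963690 on the minus strand, held a CACATG that began at position -143 from the gene start, and neither motif was in the UGT88A1 window, chr3:5620970-5621219 on the minus strand. Capitals mark the motif match.
UGT86A2: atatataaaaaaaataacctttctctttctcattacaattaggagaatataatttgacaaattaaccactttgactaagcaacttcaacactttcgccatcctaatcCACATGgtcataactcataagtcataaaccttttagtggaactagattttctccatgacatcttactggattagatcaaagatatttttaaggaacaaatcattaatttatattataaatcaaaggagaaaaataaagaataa
UGT88A1: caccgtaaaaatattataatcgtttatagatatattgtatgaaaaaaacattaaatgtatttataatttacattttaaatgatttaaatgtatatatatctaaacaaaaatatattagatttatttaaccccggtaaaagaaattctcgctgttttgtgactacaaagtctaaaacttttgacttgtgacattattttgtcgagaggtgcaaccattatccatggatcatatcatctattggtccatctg

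Values are given as CPM, counts scaled to a common library size by TMM, and levels of different genes are compared only as RPKM, the same quantity per kilobase of exon. Changes are log2 ratios with their standard error (SE) from the edgeR quasi-likelihood fit, and calls were made where the p, adjusted by Benjamini-Hochberg over all genes tested in that comparison, was under 0.05. Gene counts summed to 23560273 to 34231167 in hypocotyl libraries and to 24897594 to 45115165 in cotyledon libraries. Of the members, 99 had enough counts to be tested for the light response; UGT73C3, UGT76D1, UGT76E5, UGT85A7 and UGT91B1 stayed at or below 0.416 CPM in every library. UGT73C3 and UGT73C4 share 91.3% of their coding bases, and UGT79B7 with UGT79B8, UGT73B4 with UGT73B5, and UGT71D1 with UGT71D2 share 89.8 to 89.9%, so the split of reads within these pairs is uncertain. Marker genes went with the organ labels: the summed CPM of 4 green-tissue genes was 14630 to 26290 in hypocotyl and 68610 to 91320 in cotyledon, and that of 6 root genes reached no more than 1.60 in hypocotyl and 0.860 in cotyledon. Shoot apex genes summed to 0.789 to 2.03 CPM in hypocotyl and at most 0.0492 in cotyledon. The hypocotyl sum was nearly all STM (median 1.205 CPM), and CLV3, WUS and UFO had medians of 0 there. Stomatal lineage genes summed to 1.12 to 3.08 CPM in hypocotyl and 37.6 to 57.7 CPM in cotyledon. The part of these tissues in the differences between the organs was not tested.

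The summed level of the members was lower in low R/FR hypocotyls at 180 min. It was 1434 and 1431 CPM in low R/FR hypocotyls, against 1914 and 1920 CPM in high R/FR hypocotyls. In cotyledons it was 1991 and 1961 CPM in low R/FR, against 1984 and 2053 CPM in high R/FR. The hypocotyl groups lay far apart relative to their replicates and the cotyledon groups overlapped. GBSS1, the most abundant member, averaged 82.9 CPM in low and 216 CPM in high R/FR hypocotyls at 180 min, and without it the hypocotyl sums were 1349 and 1350 CPM in low R/FR against 1699 and 1702 CPM in high R/FR. The next largest parts of the difference came from UGT74C1 (40.1 CPM in low and 149 CPM in high R/FR), UGT88A1 (64.4 and 151.0 CPM) and UGT78D1 (8.1 and 55.4 CPM). At 90 min the sums were 1977 and 2051 CPM in low R/FR hypocotyls and 2336 and 2384 CPM in high R/FR hypocotyls. These sums were not tested. The green-tissue markers were lower in the same libraries, with sums of 14630 to 15220 CPM in low R/FR hypocotyls at 180 min against 22970 to 26290 CPM in high R/FR, and 17640 to 17760 against 18130 to 21210 CPM at 90 min. Their part in the hypocotyl changes of the members was not tested. In cotyledon at 180 min the marker sums overlapped, at 80020 to 91320 CPM in low R/FR and 87060 to 87100 CPM in high R/FR.

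**Figure D1:**
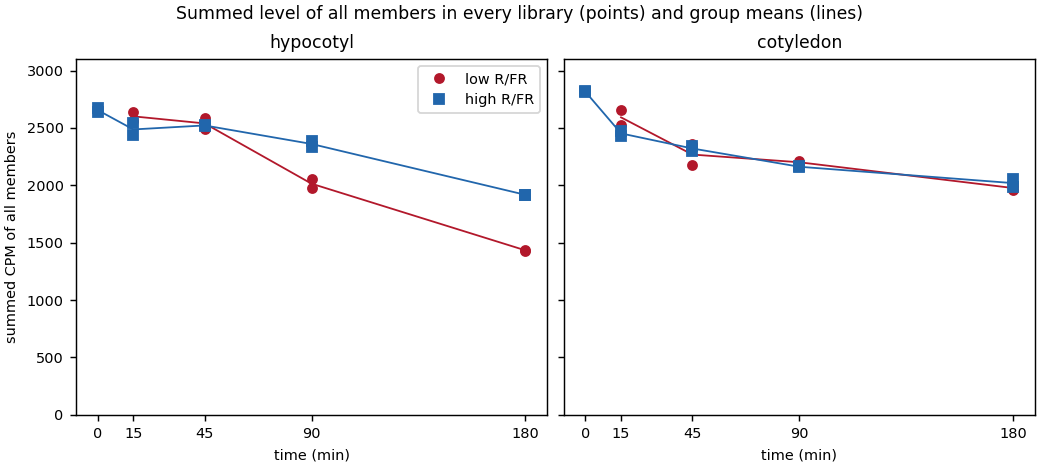
Summed CPM of all members (vertical axis) against time in minutes, hypocotyl left and cotyledon right, with low R/FR as red circles, high R/FR as blue squares, 1 point per library and lines through group means. In hypocotyl the 2 low R/FR libraries at 180 min lie at 1434 and 1431 CPM, below the high R/FR libraries at 1914 and 1920 CPM, and in cotyledon the lights overlap at that time.

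The number of members that passed the test grew with time in both organs. At 15 min none was called in hypocotyl (1 member had an unadjusted p under 0.05, and 0.179% of all 20126 genes tested were called, 0.159% higher and 0.0199% lower) or in cotyledon (2 members under 0.05 unadjusted, 0.219% of all genes called). DESeq2 called 0 members in hypocotyl and 1, UGT85A2, in cotyledon at 15 min, and without hypocotyl high R/FR replicate 1 edgeR called 1 in hypocotyl, AT3G10630. At 45 min 6 of 99 were called in hypocotyl, 3 higher and 3 lower in low R/FR, where 3.31% of all genes were called (2.09% higher and 1.22% lower), and 5 in cotyledon, 3 higher and 2 lower, where 3.62% were (2.31% higher and 1.31% lower). At 90 min 15 members rose and 30 fell in hypocotyl (45.5% of those tested, against 37.6% of all genes), and 13 rose and 14 fell in cotyledon (27.3%, against 10.8%). At 180 min 29 rose and 41 fell in hypocotyl (70.7%, against 63.8%), and 15 rose and 20 fell in cotyledon (35.4%, against 19.5%). Among all genes in cotyledon, 4.41% were higher and 6.35% lower at 90 min, and 8.02% higher and 11.5% lower at 180 min. In hypocotyl at 90 min the falling share was 30.3% of members and 18.5% of all genes, and the rising share 15.2% and 19.1%. At 180 min those shares were 41.4% and 32.6% falling, and 29.3% and 31.2% rising. The median log2 change of the tested members in hypocotyl was -0.13 at 90 min and -0.12 at 180 min, beside -0.02 and -0.04 over all genes. In cotyledon it was -0.01 and 0.06. No test of the members as a group was made.

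Across the 8 comparisons of low with high R/FR, 90 members were called at least once and 9 tested members never. Of the 90, 37 were called higher and never lower, 39 lower and never higher, and 14 changed direction between organs or times. In hypocotyl 79 were called at some time and in cotyledon 47. Within hypocotyl, 5 members rose at one time and fell at another, and no member did so within cotyledon. These counts over several comparisons were not made for all genes. In hypocotyl at 180 min alone 63.8% of all genes tested were called, so a high count is not particular to the members.

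**Figure D2:**
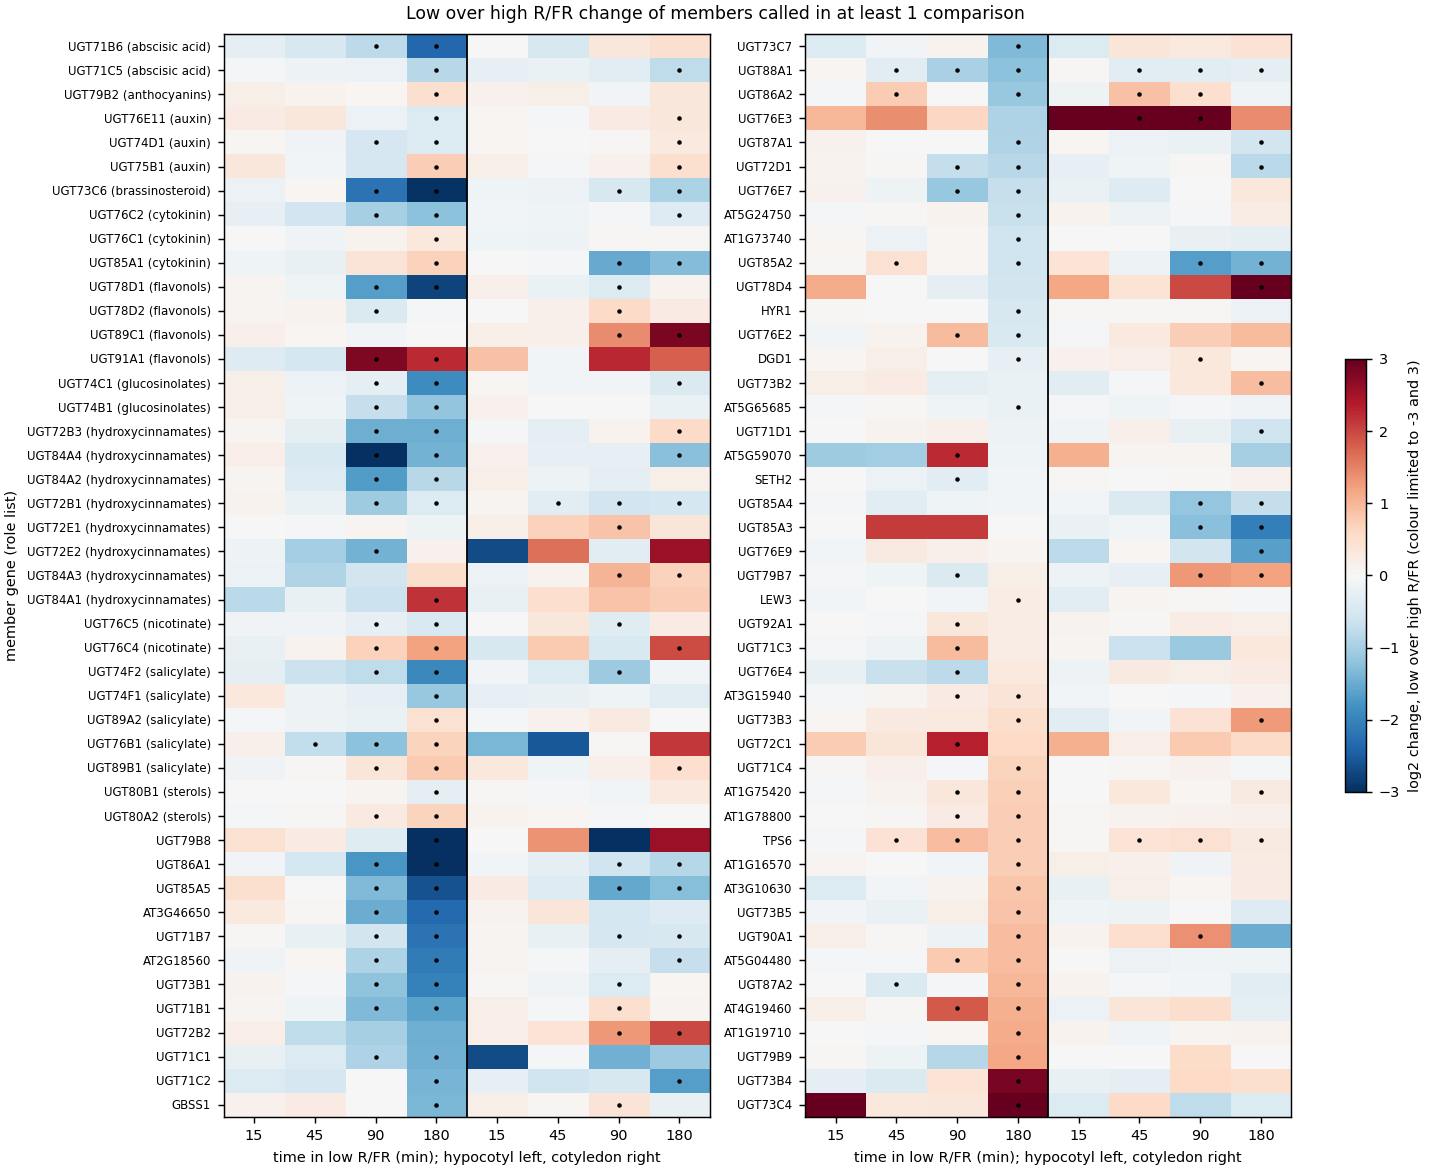
Log2 change of low over high R/FR (colour, limited to -3 and 3) of the 90 members called in at least 1 comparison, 1 row per gene with its role list in brackets, hypocotyl columns left and cotyledon columns right at 15, 45, 90 and 180 min, and a dot where the change was called. Dots are absent at 15 min and fill most of the hypocotyl column at 180 min, with 29 called higher and 41 lower.

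UGT86A2, TPS6 and UGT88A1 were called at 45 min in both organs. UGT86A2 (AT2G28080, chromosome 2, 11960571 to 11963293 in TAIR10) had 36.8 and 39.8 CPM in low R/FR hypocotyls at 45 min, against 23.7 and 21.5 CPM in high R/FR. Its cotyledon levels were 15.2 and 19.4 CPM in low R/FR, against 8.55 and 10.2 CPM in high R/FR. The groups did not overlap in either organ, and the log2 changes were 0.76 ± 0.13 (SE; edgeR adjusted p = 0.000422) and 0.89 ± 0.16 (adjusted p = 0.000558). At 90 min the change was 0.01 ± 0.13 in hypocotyl, not called, and 0.51 ± 0.16 in cotyledon (edgeR adjusted p = 0.0412). At 180 min hypocotyls had 10.4 and 11.9 CPM in low R/FR against 24.9 and 23.9 CPM in high R/FR, a log2 change of -1.13 ± 0.14 (edgeR adjusted p = 9.73e-08), while the cotyledon change was -0.14 ± 0.17 and did not pass. The promoter window of this gene is among those printed above.

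TPS6 (AT1G68020), one of the class II trehalose-phosphate synthase-like proteins, was high in low R/FR at every time from 45 min on. Low R/FR hypocotyls had 47.5 and 49.1 CPM at 45 min, 93.5 and 92.6 CPM at 90 min and 97.4 and 99.9 CPM at 180 min. High R/FR hypocotyls had 37.3 and 33.9, 45.0 and 52.5, and 56.7 and 62.1 CPM at the same times. The groups did not overlap at any of them, and the log2 change was 0.44 ± 0.09, 0.93 ± 0.09 and 0.73 ± 0.09 (edgeR adjusted p = 0.00162, 2.78e-10 and 1.14e-08). In cotyledon the changes were smaller, 0.41 ± 0.09, 0.45 ± 0.09 and 0.27 ± 0.09, all called. At 45 min the call rested on 1 library in each organ: without high R/FR replicate 2 the edgeR adjusted p was 0.0966 in hypocotyl and 0.101 in cotyledon.

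UGT88A1 (AT3G16520, chromosome 3, 5618440 to 5620873), one of the most abundant UGTs of both organs, fell at all 3 later times in both. At 180 min hypocotyls had 63.6 and 65.2 CPM in low R/FR, against 151.1 and 150.9 CPM in high R/FR. Cotyledons had 188 and 211 CPM in low R/FR, against 240.5 and 250.5 CPM in high R/FR. Low R/FR libraries were below high R/FR libraries in each organ, with a log2 change of -1.23 ± 0.07 in hypocotyl (edgeR adjusted p = 6.73e-15) and -0.30 ± 0.07 in cotyledon (adjusted p = 0.00227). At 45 min the change was -0.33 ± 0.07 in hypocotyl and -0.34 ± 0.07 in cotyledon, and the difference between the organs was 0.01 ± 0.10 then and -0.93 ± 0.10 at 180 min. Without low R/FR replicate 2 the hypocotyl change at 45 min had an edgeR adjusted p of 0.0729.

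The other calls at 45 min were single-organ ones. UGT72B1, which glucosylates monolignols and chlorinated phenols, had 89.3 and 105 CPM in low R/FR cotyledons, against 123 and 124 CPM in high R/FR (log2 change -0.34 ± 0.08, edgeR adjusted p = 0.0107), and the adjusted p was 0.0787, 0.0928 and 0.121 without high R/FR replicate 1, high R/FR replicate 2 and low R/FR replicate 1. UGT76B1, which conjugates salicylate and isoleucic acid, fell in hypocotyl by 0.75 ± 0.18 on the log2 scale (edgeR adjusted p = 0.0186), and UGT87A2 fell by 0.44 ± 0.12 (adjusted p = 0.0379). Without high R/FR replicate 2 these 2 had edgeR adjusted p of 0.547 and 0.666, and without low R/FR replicate 1 of 0.0633 and 0.357. UGT76B1 also lost the call without low R/FR replicate 2, at 0.26. UGT76E3 had 27 and 35 counts in low R/FR cotyledons at 45 min, against 2 and 2 counts in high R/FR, and 17 and 21 against 1 and 2 counts at 90 min. Its levels were at most 1.58 CPM, and the edgeR adjusted p was 0.00396 and 0.00164. Leaving out 1 library moved the number of members called at 45 min by more than 1.5 times in some cases: in cotyledon it was 3 without high R/FR replicate 1 and 2 without high R/FR replicate 2, and in hypocotyl 3 without high R/FR replicate 2.

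**Figure D3:**
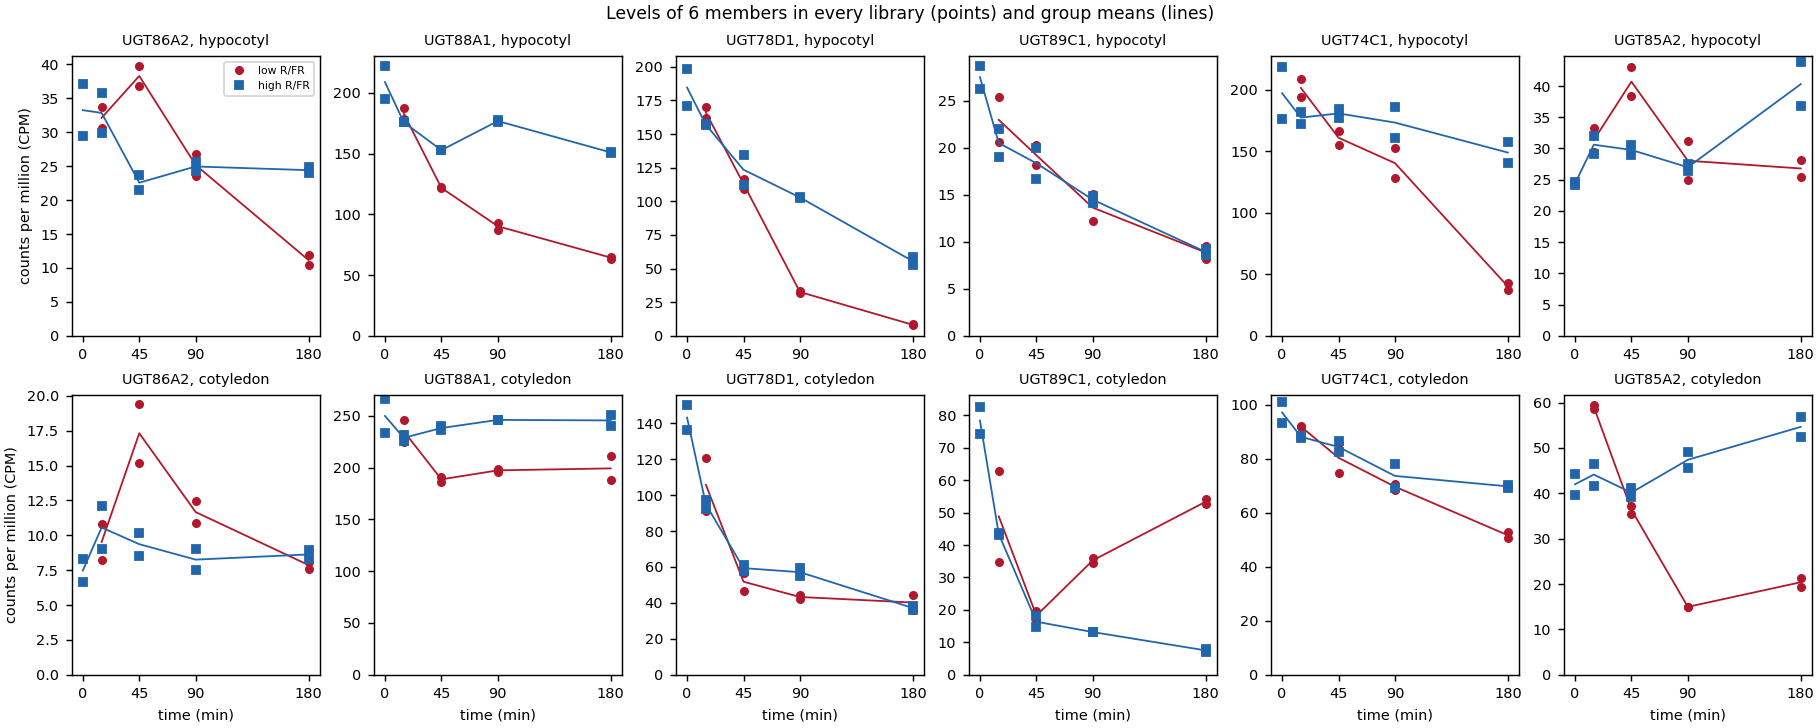
CPM (vertical axes, from 0) of 6 members against time in minutes, hypocotyl in the upper row and cotyledon in the lower, with low R/FR as red circles, high R/FR as blue squares, 1 point per library and lines through group means. UGT78D1 lies at 8.61 and 7.63 CPM in low R/FR hypocotyls at 180 min and UGT89C1 at 54.2 and 52.5 CPM in low R/FR cotyledons.

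Flavonol glycosyltransferases differed between the organs. Flavonols in Arabidopsis leaves carry sugars at positions 3 and 7, added by UGT78D1 (rhamnose at 3), UGT78D2 (glucose at 3) and UGT89C1 (rhamnose at 7). UGT78D1 (AT1G30530, chromosome 1, 10814659 to 10816583) had 31.7 and 33.4 CPM in low R/FR hypocotyls at 90 min, against 103.5 and 102.2 CPM in high R/FR. At 180 min it had 8.61 and 7.63 CPM in low R/FR, against 58.2 and 52.6 CPM in high R/FR. The groups were far apart at both times, and the log2 change was -1.66 ± 0.12 and -2.77 ± 0.13 (edgeR adjusted p = 1.19e-12 and 9.73e-17). In cotyledon the change was -0.40 ± 0.12 at 90 min (edgeR adjusted p = 0.0200) and 0.11 ± 0.12 at 180 min (0.575), and the 90 min call was lost at 0.186, 0.162 and 0.0777 without high R/FR replicate 2, low R/FR replicate 1 and low R/FR replicate 2.

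UGT89C1 (AT1G06000, chromosome 1, 1820308 to 1821894) was called in cotyledon and not in hypocotyl. Low R/FR cotyledons had 36.1 and 34.5 CPM at 90 min and 54.2 and 52.5 CPM at 180 min. High R/FR cotyledons had 13.1 and 13.2 CPM at 90 min and 7.93 and 7.08 CPM at 180 min. The groups did not overlap, with log2 changes of 1.42 ± 0.18 and 2.83 ± 0.20 (edgeR adjusted p = 4.3e-06 and 2.39e-10), the largest rise among the members with an average of at least 1 CPM in that organ at 180 min. Hypocotyls had 9.57 and 8.14 CPM in low R/FR and 9.21 and 8.62 CPM in high R/FR at 180 min, which overlap (change -0.01 ± 0.20, edgeR adjusted p = 0.976). The organ difference in response at 180 min was -2.84 ± 0.28 for UGT89C1 (edgeR adjusted p = 1.84e-08) and -2.88 ± 0.17 for UGT78D1 (adjusted p = 1.54e-13).

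UGT78D2 had 52.2 and 50.0 CPM in low R/FR cotyledons at 90 min, against 35.04 and 33.6 CPM in high R/FR (log2 change 0.57 ± 0.10, edgeR adjusted p = 6e-05). Low R/FR hypocotyls had 25.0 and 24.2 CPM, against 33.1 and 33.6 CPM in high R/FR (-0.44 ± 0.10, edgeR adjusted p = 0.000534). It rose in one organ and fell in the other at the same time, and at 180 min neither change was called. UGT91A1, placed with the flavonol enzymes, was a low-level gene that rose in hypocotyl, with 72 and 59 counts in low R/FR at 90 min against 8 and 11 counts in high R/FR (log2 change 2.81 ± 0.40, edgeR adjusted p = 9.93e-07), and 15 and 15 against 3 and 3 counts at 180 min (adjusted p = 0.00158). The anthocyanin 5-O-glucosyltransferase UGT75C1 was never called for the light, at medians of 0.229 RPKM in high R/FR hypocotyls and 0.465 RPKM in high R/FR cotyledons. UGT79B2 was called higher in hypocotyl at 180 min (0.49 ± 0.17, edgeR adjusted p = 0.0121), a call lost without any 1 of the 4 libraries, with adjusted p from 0.0579 to 0.234.

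Other genes of flavonoid synthesis are no members. The list of 11 includes chalcone synthase (CHS), flavonol synthase (FLS1) and the regulator MYB111. It also holds DFR, LDOX and PAP1, of the anthocyanin branch, so its counts are not of flavonol synthesis alone. Of the 11, none rose and 2 fell in hypocotyl at 90 min, and 1 rose and 2 fell at 180 min. In cotyledon 4 rose and none fell at 90 min, and 6 rose and none fell at 180 min. Among all genes in hypocotyl, 19.1% rose and 18.5% fell at 90 min, and 31.2% rose and 32.6% fell at 180 min. Among all genes in cotyledon, 4.41% rose and 6.35% fell at 90 min, and 8.02% rose and 11.5% fell at 180 min. At 180 min in cotyledon the log2 change was 2.08 ± 0.30 for CHS, 2.15 ± 0.24 for FLS1 and 3.14 ± 0.32 for MYB111 (edgeR adjusted p = 3.79e-05, 5.83e-07 and 1.31e-08).

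Of 3 members on the auxin list, 2 fell in hypocotyl and rose in cotyledon at 180 min, and the third rose in both. Among all genes at that time, 31.2% rose and 32.6% fell in hypocotyl, and 8.02% rose and 11.5% fell in cotyledon. Sugar conjugation makes inactive storage forms of auxin. UGT76E11 is counted here by its place on that list alone, and whether it acts on auxin was not tested. UGT74D1, which glucosylates indole-3-acetic and indole-3-butyric acid, had 69.3 and 65.9 CPM in low R/FR hypocotyls at 180 min, against 92.3 and 86.5 CPM in high R/FR. In cotyledon it had 116 and 135 CPM in low R/FR, against 102 and 104 CPM in high R/FR. The groups were apart in both organs, with log2 changes of -0.40 ± 0.08 in hypocotyl (edgeR adjusted p = 5.79e-05) and 0.28 ± 0.08 in cotyledon (adjusted p = 0.0103), and an organ difference of -0.69 ± 0.11. The cotyledon call was lost without high R/FR replicate 1, high R/FR replicate 2 and low R/FR replicate 2, at adjusted p of 0.0774, 0.0506 and 0.248.

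UGT76E11 had 1.75 and 1.79 CPM in low R/FR hypocotyls at 180 min, against 2.26 and 2.49 CPM in high R/FR (log2 change -0.42 ± 0.15, edgeR adjusted p = 0.0251, and 0.051 without high R/FR replicate 3). In cotyledon it had 32.2 and 31.8 CPM in low R/FR, against 25.7 and 24.5 CPM in high R/FR (0.35 ± 0.09, adjusted p = 0.00546, and 0.0733 without high R/FR replicate 2). UGT75B1, an indole-3-butyric acid glucosyltransferase in vitro, rose in both organs, by 0.75 ± 0.20 in hypocotyl and 0.48 ± 0.11 in cotyledon (edgeR adjusted p = 0.00193 and 0.00177); the adjusted p was 0.0617 without high R/FR replicate 2 in hypocotyl and 0.053 without high R/FR replicate 1 in cotyledon. Of these 3 members of the auxin list, then, 1 rose and 2 fell in hypocotyl and all 3 rose in cotyledon at 180 min. Each changed by less than 2-fold. Among all genes at 180 min, 31.2% rose and 32.6% fell in hypocotyl, and 8.02% rose and 11.5% fell in cotyledon. Other genes that inactivate auxin or cytokinin, the GH3, DAO1 and CKX genes, were counted beside the auxin list. Of the 11 tested, 7 rose and 1 fell at 90 min in each organ. At 180 min 6 rose and 3 fell in hypocotyl, and 3 rose and 2 fell in cotyledon. Their median log2 change was 2.02 in hypocotyl and 2.04 in cotyledon at 90 min, and 0.55 and -0.04 at 180 min. Among all genes at 90 min, 19.1% rose and 18.5% fell in hypocotyl, and 4.41% rose and 6.35% fell in cotyledon. GH3.3, which joins auxin to amino acids, changed by 5.53 ± 0.18 in hypocotyl and 6.25 ± 0.20 in cotyledon at 90 min on the log2 scale (edgeR adjusted p = 1.125e-17 and 2.39e-17).

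Cytokinin is inactivated by UGT76C1 and UGT76C2, which add glucose to nitrogen atoms of the ring, and stored by UGT85A1, which adds it to the side chain of zeatin. UGT76C2 (AT5G05860, chromosome 5, 1765507 to 1767455) fell in both organs. It had 1.72 and 1.40 CPM in low R/FR hypocotyls at 180 min, against 3.90 and 3.39 CPM in high R/FR (log2 change -1.22 ± 0.19, edgeR adjusted p = 1.46e-06), and was already lower at 90 min (-1.0023 ± 0.17). In cotyledon it had 27.5 and 28.5 CPM in low R/FR, against 36.2 and 36.9 CPM in high R/FR (-0.39 ± 0.11, adjusted p = 0.0138). The cotyledon call was lost without each of the 4 libraries in turn, at adjusted p from 0.0545 to 0.101. Its neighbour on the chromosome, UGT76C1, was called only in hypocotyl at 180 min and upward (0.31 ± 0.10, adjusted p = 0.00897), and lost that call without high R/FR replicate 2 (0.241), high R/FR replicate 3 (0.0991) or low R/FR replicate 3 (0.452). UGT85A1 is described with its run below.

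The brassinosteroid and flavonol glucosyltransferase UGT73C6 fell in both organs. Low R/FR cotyledons had 3.25 and 3.45 CPM at 180 min, against 6.17 and 6.77 CPM in high R/FR (log2 change -0.95 ± 0.17, edgeR adjusted p = 0.000113). In hypocotyl it was near the limit of detection: low R/FR libraries held 4 and 6 counts at 90 min and 1 and 2 counts at 180 min, against 26 and 23, and 14 and 11 counts in high R/FR libraries (edgeR adjusted p = 2.54e-05 and 4.74e-05). The change in cotyledon at 90 min (-0.48 ± 0.15, adjusted p = 0.0375) was lost without high R/FR replicate 2 (0.376), low R/FR replicate 1 (0.156) or low R/FR replicate 2 (0.2). Abscisic acid glucosyltransferases fell as well. UGT71B6 had 1.44 and 1.37 CPM in low R/FR hypocotyls at 180 min, against 7.08 and 7.29 CPM in high R/FR (-2.35 ± 0.19, edgeR adjusted p = 9.41e-12), and was near 1 CPM without a called change in cotyledon. UGT71C5, which makes the glucose ester of abscisic acid, had 20.2 and 20.4 CPM in low R/FR hypocotyls at 180 min, against 36.7 and 36.01 CPM in high R/FR (-0.84 ± 0.09, adjusted p = 2.05e-09). Its cotyledon change was of like size, -0.77 ± 0.11 (adjusted p = 5.73e-06), with 6.74 and 6.86 CPM in low R/FR and 11.8 and 11.4 CPM in high R/FR.

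Members that act on salicylate and other immune signals were counted in hypocotyl by time. Of 5 tested, 1 rose and 2 fell in hypocotyl at 90 min, and 3 rose and 2 fell at 180 min. Among all genes there, 19.1% rose and 18.5% fell at 90 min, and 31.2% rose and 32.6% fell at 180 min. UGT74F2, which makes the glucose ester of salicylate, had 2.39 and 2.18 CPM in low R/FR hypocotyls at 180 min, against 8.06 and 9.45 CPM in high R/FR (log2 change -1.93 ± 0.25, edgeR adjusted p = 5.56e-07). In cotyledon it had 17.6 and 16.9 CPM in low R/FR at 90 min, against 37.0 and 37.0 CPM in high R/FR (-1.10 ± 0.19, adjusted p = 0.000177). UGT74F1, which makes the salicylate glucoside, also fell in hypocotyl at 180 min (-1.14 ± 0.33, adjusted p = 0.0037). At 90 min the hypocotyl fall of UGT74F2 (-0.76 ± 0.22) had an adjusted p of 0.0782 without high R/FR replicate 2.

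UGT76B1 turned round in hypocotyl. Low R/FR hypocotyls had 5.87 and 5.29 CPM at 90 min, against 12.2 and 14.2 CPM in high R/FR (-1.24 ± 0.20, edgeR adjusted p = 2.57e-05). At 180 min they had 13.9 and 15.7 CPM in low R/FR, against 8.74 and 9.97 CPM in high R/FR (0.66 ± 0.19, adjusted p = 0.00427). The groups were apart at both times and in opposite order; the later call had an adjusted p of 0.106 without high R/FR replicate 2 and 0.0865 without low R/FR replicate 3. UGT89B1 and UGT89A2, which glucosylate dihydroxybenzoates, rose in hypocotyl at 180 min, by 0.78 ± 0.14 and 0.45 ± 0.12 (edgeR adjusted p = 1.44e-05 and 0.00138), and UGT89A2 was at 0.103 without low R/FR replicate 3. UGT89B1 was also called higher in hypocotyl at 90 min (0.35 ± 0.14) and in cotyledon at 180 min (0.50 ± 0.16), and lost these calls in several refits: the first without any 1 of the 4 libraries (adjusted p from 0.104 to 0.297), the second without high R/FR replicate 1 (0.3), low R/FR replicate 1 (0.107) or low R/FR replicate 2 (0.0941).

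Hydroxycinnamate and monolignol conjugating members were counted by organ and time. UGT84A1 to UGT84A4 make glucose esters of hydroxycinnamates such as sinapate, and UGT72E and UGT72B enzymes glucosylate lignin precursors. Of the 8 tested, none rose and 5 fell in hypocotyl at 90 min, and 1 rose and 4 fell at 180 min. Among all genes in hypocotyl 19.1% rose and 18.5% fell at 90 min. At 180 min 31.2% rose and 32.6% fell, and the 63.8% called is close to the 5 of 8 called here. In cotyledon 2 rose and 1 fell at 90 min, and 2 rose and 2 fell at 180 min. Among all genes in cotyledon, 4.41% rose and 6.35% fell at 90 min, and 8.02% rose and 11.5% fell at 180 min. UGT84A4 (AT4G15500, chromosome 4, 8856988 to 8858572) had 0.815 and 0.751 CPM in low R/FR hypocotyls at 90 min, against 6.84 and 9.03 CPM in high R/FR. Its log2 change, -3.34 ± 0.22 (edgeR adjusted p = 1.53e-13), was the largest fall of a called member at that time, and at 180 min it was -1.43 ± 0.18 in hypocotyl and -1.25 ± 0.23 in cotyledon (adjusted p = 7.26e-08 and 0.000161). UGT84A2, the sinapate glucosyltransferase, had 7.59 and 7.73 CPM in low R/FR hypocotyls at 90 min, against 23.99 and 24.9 CPM in high R/FR (-1.67 ± 0.13, adjusted p = 3.25e-11), and was still lower at 180 min (-0.83 ± 0.14).

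UGT72B1 had 55.8 and 56.8 CPM in low R/FR hypocotyls at 90 min, against 118 and 117 CPM in high R/FR (-1.07 ± 0.08, edgeR adjusted p = 7.19e-12). Cotyledons at 90 min had 65.6 and 70.0 CPM in low R/FR, against 95.9 and 105.6 CPM in high R/FR (-0.57 ± 0.08, adjusted p = 6.34e-06). UGT72B3 fell in hypocotyl, with 15.2 and 15.2 CPM in low R/FR at 180 min against 40.5 and 44.0 CPM in high R/FR (-1.47 ± 0.09, edgeR adjusted p = 1.1e-14), and rose in cotyledon, with 27.2 and 26.4 CPM against 17.5 and 18.4 CPM (0.58 ± 0.09, adjusted p = 2.39e-05). The groups were apart in each organ and in opposite order, and the organ difference was -2.05 ± 0.13. UGT84A3 rose in cotyledon at 90 and 180 min, by 1.01 ± 0.21 and 0.70 ± 0.21 (edgeR adjusted p = 0.00117 and 0.0171), and lost the later call without high R/FR replicate 1 (0.134), high R/FR replicate 2 (0.065) or low R/FR replicate 1 (0.243).

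UGT72E1 had 65.6 and 54.7 CPM in low R/FR cotyledons at 90 min, against 34.6 and 32.2 CPM in high R/FR (0.85 ± 0.25, edgeR adjusted p = 0.0288), a call lost without each of the 4 libraries in turn (adjusted p from 0.0542 to 0.225). UGT72E2 fell in hypocotyl at 90 min, with 40 and 19 counts in low R/FR against 89 and 74 counts in high R/FR (adjusted p = 0.0121, and 0.0688 and 0.152 without high R/FR replicate 1 and low R/FR replicate 2). UGT84A1, at 11 and 13 counts in low R/FR hypocotyls at 180 min against 3 and 2 counts in high R/FR, was the 1 member of the list that rose there (adjusted p = 0.00806, and 0.0596 and 0.0553 without replicate 3 of high or of low R/FR). Other genes of these pathways, among them PAL1 and SNG1, gave 7 lower and none higher of 10 tested in hypocotyl at 90 min. In cotyledon they gave 6 lower and 1 higher. At 180 min they gave 5 lower and 1 higher in hypocotyl, and 4 lower and 1 higher in cotyledon. Among all genes at 90 min, 18.5% were lower and 19.1% higher in hypocotyl, and 6.35% lower and 4.41% higher in cotyledon. At 180 min those shares were 32.6% and 31.2% in hypocotyl, and 11.5% and 8.02% in cotyledon. Ferulate 5-hydroxylase (FAH1), which opens the branch to sinapate, changed by -0.64 ± 0.08 in hypocotyl and -0.58 ± 0.08 in cotyledon at 90 min (edgeR adjusted p = 6.5e-08 and 1.72e-06).

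Both glucosinolate S-glucosyltransferases, which add the glucose of the glucosinolate core, fell in hypocotyl. UGT74C1 (AT2G31790, chromosome 2, 13518211 to 13520364) had 37.5 and 42.7 CPM in low R/FR hypocotyls at 180 min, against 140 and 158 CPM in high R/FR (log2 change -1.89 ± 0.10, edgeR adjusted p = 8.355e-16). UGT74B1 (AT1G24100) had 26.1 and 29.1 CPM in low R/FR, against 62.8 and 63.2 CPM in high R/FR (-1.19 ± 0.14, adjusted p = 2.12e-08). In cotyledon UGT74C1 fell less, by 0.43 ± 0.10 (adjusted p = 0.00222), with 50.6 and 52.8 CPM in low R/FR and 70.3 and 69.3 CPM in high R/FR, and UGT74B1 was not called. Both had fallen in hypocotyl at 90 min, UGT74B1 by 0.70 ± 0.13 and UGT74C1 by 0.30 ± 0.10, the second with an adjusted p of 0.125 and 0.134 without replicate 1 of high or of low R/FR.

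Sterol glucosyltransferases were called in hypocotyl alone. UGT80A2 had 50.8 and 51.2 CPM in low R/FR hypocotyls at 180 min, against 31.2 and 33.4 CPM in high R/FR (0.66 ± 0.07, edgeR adjusted p = 4.44e-09), and UGT80B1 was called lower there (-0.27 ± 0.12, adjusted p = 0.0440), losing the call without high R/FR replicate 3 (0.09) or low R/FR replicate 3 (0.155). At 90 min UGT80A2 was called higher (0.28 ± 0.07), with an adjusted p of 0.105 and 0.124 without high R/FR replicate 1 and low R/FR replicate 2. Of the nicotinate N-glucosyltransferases, UGT76C4 rose at 180 min in hypocotyl (1.21 ± 0.26, edgeR adjusted p = 0.000142) and in cotyledon (1.95 ± 0.28, adjusted p = 5.15e-06). It had 2.82 and 2.30 CPM in low R/FR hypocotyls against 1.198 and 1 CPM in high R/FR, and 3.70 and 2.74 CPM in low R/FR cotyledons against 0.705 and 0.951 CPM in high R/FR. UGT76C5, its neighbour, fell in hypocotyl at 180 min (-0.47 ± 0.10, adjusted p = 0.00013). The smaller calls of this pair at 90 min were lost without 1 library: UGT76C4 in hypocotyl without high R/FR replicate 1 (0.295) or low R/FR replicate 2 (0.239), UGT76C5 in hypocotyl without high R/FR replicate 1, low R/FR replicate 1 or low R/FR replicate 2 (0.0581 to 0.0756), and UGT76C5 in cotyledon without high R/FR replicate 2 (0.377), low R/FR replicate 1 (0.0853) or low R/FR replicate 2 (0.246).

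The UGT85A genes form a run of 5 neighbours on chromosome 1, of which 4 were tested, and UGT85A4 lies elsewhere on the chromosome. All 4 tested genes of the run fell in cotyledon at 90 and 180 min, and so did UGT85A4. UGT85A2 (AT1G22360, chromosome 1, 7894858 to 7897591) had 15.0 and 14.9 CPM in low R/FR cotyledons at 90 min, against 45.7 and 49.1 CPM in high R/FR. UGT85A1 (chromosome 1, 7903660 to 7906673) had 10.5 and 9.80 CPM in low R/FR, against 26.04 and 32.1 CPM in high R/FR. UGT85A5 had 2.89 and 3.27 CPM in low R/FR, against 8.33 and 9.55 CPM in high R/FR. In all 3 the groups stood well apart, with log2 changes of -1.66 ± 0.10, -1.52 ± 0.17 and -1.54 ± 0.21 (edgeR adjusted p = 4.13e-13, 1.33e-07 and 2.92e-06), and at 180 min of -1.42 ± 0.10, -1.29 ± 0.17 and -1.28 ± 0.19. UGT85A4 changed by -1.15 ± 0.17 and -0.71 ± 0.15, and the low-level UGT85A3 by -1.25 ± 0.37 and -2.06 ± 0.42, with 11 and 5 counts in low R/FR against 29 and 42 counts in high R/FR at 180 min.

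In hypocotyl the same genes went separate ways. UGT85A2 had 43.0 and 38.4 CPM in low R/FR hypocotyls at 45 min, against 28.9 and 30.6 CPM in high R/FR (0.45 ± 0.10, edgeR adjusted p = 0.00371), and 25.5 and 28.2 CPM in low R/FR at 180 min, against 43.8 and 36.8 CPM in high R/FR (-0.59 ± 0.10, adjusted p = 4.42e-06). UGT85A5 fell at 180 min, with 8 and 7 counts in low R/FR against 44 and 47 counts in high R/FR (-2.61 ± 0.39, adjusted p = 8.4e-07). UGT85A1 was called higher at 180 min, with 2.65 and 3.22 CPM in low R/FR against 1.83 and 1.81 CPM in high R/FR (0.69 ± 0.25, adjusted p = 0.0179). UGT85A3 had at most 1 count in every hypocotyl library. The UGT85A1 call was lost without high R/FR replicate 2 (0.115), high R/FR replicate 3 (0.106) or low R/FR replicate 3 (0.207), and the UGT85A2 call at 45 min without high R/FR replicate 1 (0.0578) or low R/FR replicate 1 (0.0988).

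UGT85A2 had the smallest p of the members in cotyledon at 15 min, with a log2 change of 0.42 ± 0.10 and an edgeR adjusted p of 0.0680, which did not pass; in the authors' deposited table the log2 change at that time is 0.43 with an adjusted p of 0.0123. By 90 min the sign in cotyledon was the opposite, as given above. At 45 min its cotyledon change was -0.14 ± 0.10 and did not pass.

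Among members with an average of at least 1 CPM over all libraries, the largest falls in hypocotyl at 180 min were those of UGT86A1, UGT73C6, UGT78D1, UGT85A5 and UGT71B6. That average spans both organs, and UGT73C6 and UGT85A5 were far lower in hypocotyl than in cotyledon. In high R/FR their medians were 0.443 and 0.313 RPKM in hypocotyl, against 7.04 and 3.09 RPKM in cotyledon. The hypocotyl falls of UGT73C6 and UGT85A5 rest on the few counts given above. UGT86A1 (AT2G36970, chromosome 2, 15529006 to 15530749), the closest relative of UGT86A2 among the members, had 0.563 and 0.328 CPM (20 and 11 counts) in low R/FR hypocotyls, against 5.26 and 5.32 CPM in high R/FR (log2 change -3.55 ± 0.22, edgeR adjusted p = 3e-14). It also fell at 90 min (-1.75 ± 0.18) and in cotyledon at 90 and 180 min (-0.59 ± 0.14 and -0.85 ± 0.14). UGT86A1 and UGT86A2, which share 65.9% of their coding bases, both fell in hypocotyl at 180 min, and of the pair UGT86A2 rose at 45 min. The run of UGT71B1, HYR1, UGT71B6 and UGT71B7 fell whole in hypocotyl at 180 min. UGT71B7 had 3.35 and 3.94 CPM in low R/FR, against 16.5 and 17.2 CPM in high R/FR (-2.21 ± 0.10, adjusted p = 9.23e-18), UGT71B1 changed by -1.61 ± 0.13 and HYR1 by -0.49 ± 0.08. UGT71B1 rose in cotyledon at 90 min (0.49 ± 0.12, adjusted p = 0.0058).

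With the same limit, the largest rises in hypocotyl at 180 min were those of UGT73B4, UGT76C4, AT1G19710, AT4G19460 and UGT87A2. UGT73B4 (AT2G15490), of a subgroup tied to oxidative stress and pathogen responses, had 13.7 and 14.7 CPM in low R/FR, against 2.42 and 1.48 CPM in high R/FR (2.84 ± 0.26, edgeR adjusted p = 1.09e-10), and its neighbour UGT73B5 had 23.1 and 22.2 CPM against 12.9 and 11.97 CPM (0.87 ± 0.12, adjusted p = 4.52e-07). Neither was called at an earlier time. In the other UGT73B run, on chromosome 4, UGT73B3 rose in hypocotyl (0.53 ± 0.16) and in cotyledon (1.28 ± 0.23), UGT73B2 rose in cotyledon (0.92 ± 0.17), and UGT73B1 fell in hypocotyl, with 10.7 and 7.72 CPM in low R/FR against 37.2 and 37.9 CPM in high R/FR (-2.03 ± 0.12, adjusted p = 1.06e-14). UGT87A2, which has been linked to flowering time, had 9.43 and 9.12 CPM in low R/FR at 180 min, against 4.63 and 4.61 CPM in high R/FR (1.0045 ± 0.13, adjusted p = 1.5e-07), while its neighbour UGT87A1 fell (-0.90 ± 0.09).

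AT4G19460 was the largest riser in hypocotyl at 90 min among members with an average of at least 1 CPM, at 32.8 and 34.9 CPM in low R/FR against 9.76 and 9.22 CPM in high R/FR (1.83 ± 0.16, edgeR adjusted p = 2.45e-10). It was followed by UGT71C3 (0.95 ± 0.21), UGT76E2 (0.94 ± 0.12), TPS6 and AT5G04480 (0.79 ± 0.09), all called. UGT76E2 then crossed over: low R/FR hypocotyls had 45.5 and 43.0 CPM at 90 min and 12.02 and 13.9 CPM at 180 min, against 21.8 and 24.2, and 16.7 and 19.2 CPM in high R/FR, and the change at 180 min was -0.47 ± 0.13 (edgeR adjusted p = 0.00253). With that limit the largest rises in cotyledon at 180 min were those of UGT89C1, UGT72B2, UGT76C4, UGT73B3 and UGT79B7. UGT72B2 had 43.1 and 43.8 CPM in low R/FR, against 11.01 and 10.95 CPM in high R/FR (1.98 ± 0.15, adjusted p = 2.15e-11), and UGT79B7 had 6.16 and 5.80 CPM against 2.95 and 2.24 CPM (1.21 ± 0.21, adjusted p = 7.6e-05). UGT90A1 rose in cotyledon at 90 min, with 41 and 59 counts in low R/FR against 28 and 31 counts in high R/FR (1.37 ± 0.29, adjusted p = 0.00115, and 0.0636 without low R/FR replicate 2).

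Among the largest falls in cotyledon at 180 min with that limit, next to the UGT85A genes, were UGT71C2 (-1.66 ± 0.37, edgeR adjusted p = 0.00188, and 0.054 without low R/FR replicate 2) and UGT76E9, at 3 and 3 counts in low R/FR against 11 and 9 counts in high R/FR (adjusted p = 0.0388, and 0.0546 to 0.231 without any 1 of the 4 libraries). Some calls with large fitted changes rested on very few reads. UGT73C4 had 3 and 3 counts in low R/FR hypocotyls at 180 min and none in high R/FR, UGT79B8 none in low R/FR and 3 and 11 counts in high R/FR, and UGT78D4 16 and 9 counts in low R/FR cotyledons against 0 and 1 count in high R/FR. Fold changes are not given for these, and UGT73C4 and UGT79B8 are among the pairs with similar coding sequence named above.

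Members with more than 2 coding exons, mostly without the PSPG core, were counted apart from the others. In hypocotyl at 180 min 11 of 22 such members rose and 9 fell, with a median log2 change of 0.12. Of 77 tested members with 1 or 2 coding exons, 18 rose and 32 fell, with a median of -0.15. In cotyledon at 90 min the counts were 4 higher and none lower, against 9 higher and 14 lower. Among all genes 31.2% rose and 32.6% fell in hypocotyl at 180 min, and 4.41% rose and 6.35% fell in cotyledon at 90 min. The difference between the 2 exon classes was not tested. GBSS1 and DGD1 are among the longer genes. GBSS1 had 85.2 and 80.7 CPM in low R/FR hypocotyls at 180 min, against 214.7 and 217.6 CPM in high R/FR (-1.38 ± 0.09, edgeR adjusted p = 1.93e-13), and 412 and 394 CPM in low R/FR cotyledons at 90 min, against 322.5 and 291 CPM in high R/FR (0.39 ± 0.09, adjusted p = 0.00316). DGD1 went the same 2 ways, at -0.24 ± 0.07 in hypocotyl at 180 min and 0.32 ± 0.07 in cotyledon at 90 min (adjusted p = 0.00353 and 0.000773).

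The members fall into 15 runs of 2 or more neighbours, which hold 46 of them. In hypocotyl at 180 min 7 runs held both a member that rose and one that fell, 4 held at least 2 that fell and none that rose, and 1 (UGT73B4 with UGT73B5) held at least 2 that rose and none that fell. In cotyledon these numbers were 2, 3 and 1. Other neighbouring genes were not compared, and in hypocotyl at that time 31.2% of all genes rose and 32.6% fell. The pairs UGT87A2 and UGT87A1, and UGT73B3 and UGT73B1, described above, are examples of neighbours on opposite sides in hypocotyl.

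**Figure D4:**
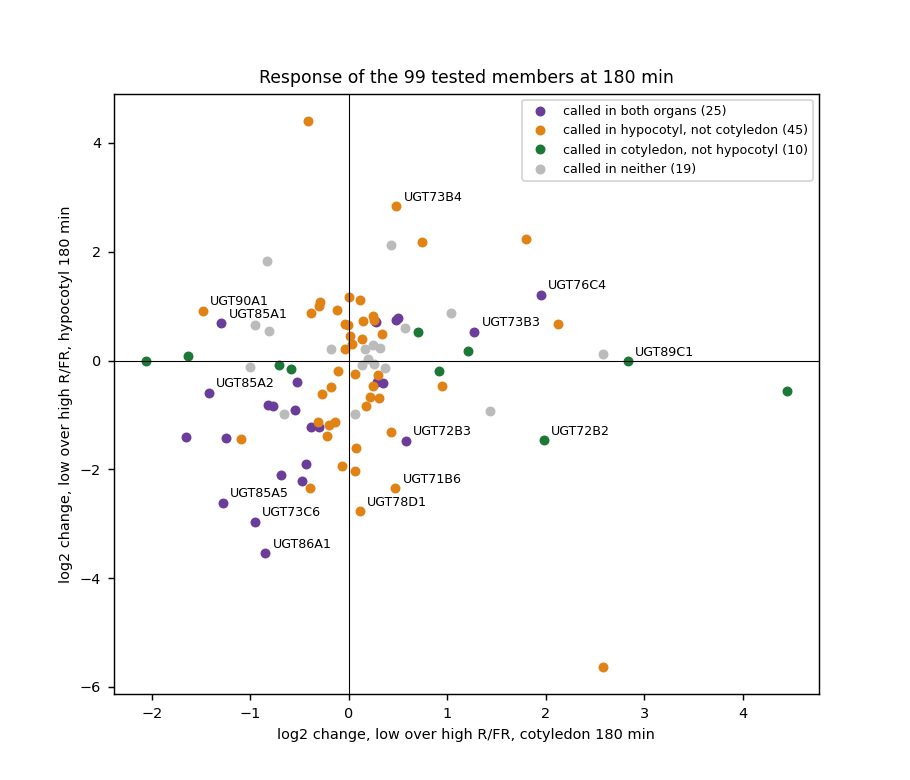
Log2 change of low over high R/FR at 180 min in hypocotyl (vertical axis) against that in cotyledon (horizontal axis), 1 point per member tested, coloured by the organs in which the change was called. UGT89C1 lies at 2.83 in cotyledon and -0.01 in hypocotyl, and UGT78D1 at 0.11 and -2.77.

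The response of hypocotyl and cotyledon was compared directly as the difference of their log2 changes. That difference was called for no member at 15 min (4 had an unadjusted p under 0.05, 0.0149% of all genes were called, and DESeq2 called 0 members) and for 1 at 45 min (0.696% of all genes), UGT85A2 at 0.59 ± 0.14 (edgeR adjusted p = 0.0304). That call was lost in 6 of the 8 refits without 1 library of the 45 min groups, at adjusted p from 0.0777 to 0.205. At 90 min it was called for 37 of 99 members, 10 with a higher and 27 with a lower value in hypocotyl, where 21.4% of all genes were called. At 180 min it was called for 57, 21 higher and 36 lower, where 46.5% were. Members with an average of at least 1 CPM over both organs were then ranked, a limit that admits members with few counts in 1 organ. Those furthest apart at 90 min were UGT71C3 (2.06 ± 0.45), UGT85A1 (1.91 ± 0.31) and UGT85A2 (1.72 ± 0.14) on the side of hypocotyl, and UGT84A4 (-3.08 ± 0.33), UGT72B2 (-2.30 ± 0.50) and UGT71B1 (-1.81 ± 0.17) on the other, with edgeR adjusted p from 1.07e-10 to 0.000913. At 180 min they were UGT90A1 (2.40 ± 0.64), UGT73B4 (2.36 ± 0.75) and UGT85A1 (1.98 ± 0.30), and UGT72B2 (-3.45 ± 0.72), UGT78D1 and UGT89C1 (given above). For UGT73B4 the call was lost without cotyledon high R/FR replicate 2 (1.49, adjusted p = 0.358), and cotyledon libraries held 3 to 11 counts of it at that time. UGT72B2 was at 0.0844 and 0.0596 CPM in low R/FR and 0.136 and 0.290 CPM in high R/FR hypocotyls at 180 min, and libraries there held 3 and 2 counts in low R/FR against 5 and 9 counts in high R/FR. UGT71C3 and UGT90A1 were low in high R/FR cotyledons, with medians of 0.200 and 0.406 RPKM. The few counts of UGT71C3 and UGT72B2 at 90 min and of UGT90A1 at 180 min are listed with the results flagged for a closer look.

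Part of the calls were shared by the organs. At 45 min the 3 shared calls made up 50% of the hypocotyl and 60% of the cotyledon calls, where shared genes made up 45.5% and 41.6% of all genes called. At 90 min 14 were shared (31.1% and 51.9%, against 20.5% and 71.8% of all genes called), 1 higher in both, 10 lower in both and 3 (UGT71B1, UGT78D2 and UGT79B7) lower in hypocotyl and higher in cotyledon. UGT79B7 fell by 0.44 ± 0.17 in hypocotyl at 90 min (edgeR adjusted p = 0.0413) and changed by 1.29 ± 0.21 in cotyledon. At 180 min 25 were shared (35.7% and 71.4%, against 24.4% and 79.7% of all genes called), 6 higher in both and 15 lower in both. The remaining 4 went opposite ways: UGT72B3, UGT74D1 and UGT76E11 lower in hypocotyl and higher in cotyledon, and UGT85A1 higher in hypocotyl and lower in cotyledon. Over all genes, 28.6% of the shared calls at 90 min and 24% at 180 min went opposite ways. The overlap of the members was not tested against that of all genes.

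Most members differed in level between the organs in high R/FR. Over the 10 high R/FR libraries of each organ, 86 of 97 tested members differed, 52 higher and 34 lower in hypocotyl. Of all 19825 genes tested 80.2% differed, 40.8% higher and 39.4% lower in hypocotyl. Of the 86 members, 36 differed by at least 4-fold, and the share of all genes at that fold was not counted. By median RPKM the most abundant members in hypocotyl were GBSS1 (200.8), UGT74C1 (107.7), UGT88A1 (71.1), UGT78D1 (64.7) and UGT74D1 (59.1). In cotyledon they were GBSS1 (182.0), UGT88A1 (97.2), UGT74D1 (71.9), UGT72B1 (54.4) and UGT74C1 (51.4). The library ranges of UGT88A1, UGT78D1 and UGT74D1 in hypocotyl, 61.1 to 90.0, 27.6 to 104 and 47.5 to 95.4 RPKM, overlapped, so their order there is not resolved. UGT74C1 ran from 85.5 to 133 RPKM in hypocotyl and from 42.2 to 61.6 RPKM in cotyledon, without overlap.

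Among members with an average of at least 1 CPM over the high R/FR libraries, those with the largest differences in favour of hypocotyl were UGT76B1, UGT72E2, UGT76E2, UGT71C1, UGT73B4 and UGT71B6. UGT76B1 ran from 5.05 to 34.9 RPKM (median 12.8) in hypocotyl and from 0 to 0.284 RPKM (median 0.0412) in cotyledon, a log2 difference of 7.45 ± 0.27 (edgeR adjusted p = 1.7e-14). UGT76E2 had a median of 15.8 RPKM in hypocotyl and 0.364 RPKM in cotyledon (5.07 ± 0.13, adjusted p = 1.925e-17). Their hypocotyl and cotyledon ranges were wholly apart. UGT72E2, a coniferyl alcohol glucosyltransferase, had 681 counts over the hypocotyl libraries and 5 over the cotyledon libraries (6.28 ± 0.38), and the remaining 3 differed by 4.39 ± 0.37, 3.34 ± 0.24 and 3.29 ± 0.15. UGT79B9, below that average, had 422 counts in hypocotyl and 2 in cotyledon. On the cotyledon side, with the same limit, stood UGT73C1, with 1 count over the 10 hypocotyl libraries and 818 over the 10 cotyledon libraries, then UGT72B2 (-5.14 ± 0.15), UGT85A1 and UGT84A3 (both -4.46), UGT75B1 (-4.28 ± 0.09) and UGT73C6 (-3.66 ± 0.12), all called. UGT85A3, below that average, had 1 count in hypocotyl and 427 in cotyledon. UGT85A1 had a median of 0.685 RPKM in hypocotyl and 15.4 RPKM in cotyledon.

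**Figure D5:**
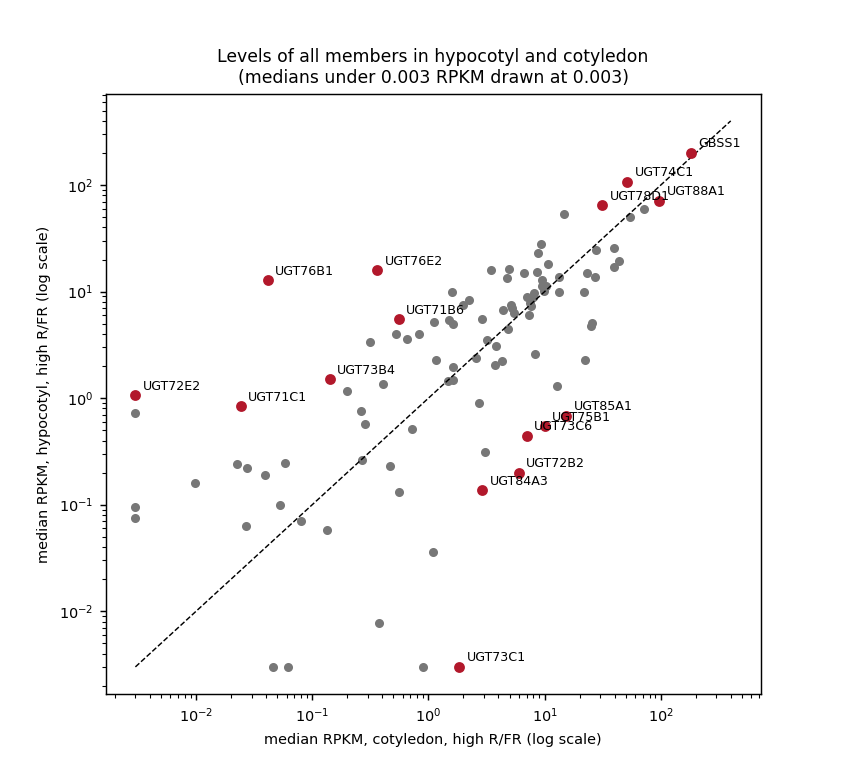
Median RPKM of each member in the 10 high R/FR hypocotyl libraries (vertical, log scale) against that in the 10 high R/FR cotyledon libraries (horizontal, log scale), with the line of equal level dashed, named members in red and medians of nearly 0 drawn at the edge. UGT76B1 lies far above the line, at 12.8 RPKM in hypocotyl and 0.0412 in cotyledon, and UGT85A1 below it, at 0.685 and 15.4.

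Many members changed between 0 and 180 min without any change of light. Between 180 and 0 min in high R/FR, 24 members were higher and 29 lower at 180 min in hypocotyl (44.9% of all genes were called), and 36 were higher and 28 lower in cotyledon (55.6% of all genes). The median log2 change of all genes in cotyledon was 0.109, against 0.045 with RLE size factors and 0.008 with the cotyledon libraries scaled alone, so changes of that size carry no direction. GBSS1, whose transcript is known to peak early in the day, had 136 and 125 CPM at 180 min in cotyledon, against 631 and 533 CPM at 0 min (-2.15 ± 0.10, edgeR adjusted p = 3.7e-17). UGT89C1 had 7.93 and 7.08 CPM at 180 min in cotyledon, against 82.5 and 74.3 CPM at 0 min (-3.39 ± 0.20, adjusted p = 1.05e-12). Its cotyledon level in low R/FR at 180 min, 54.2 and 52.5 CPM, lay between the 0 min level and that of high R/FR at 180 min. UGT84A4 (2.81 ± 0.29), UGT72E1 (2.55 ± 0.28) and UGT76C5 (2.09 ± 0.12) were the largest rises in cotyledon among members with an average of at least 1 CPM, and UGT76E2 (-2.36 ± 0.36) a further fall.

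In hypocotyl UGT76B1 had 8.74 and 9.97 CPM at 180 min, against 51.7 and 60.4 CPM at 0 min (-2.59 ± 0.19, edgeR adjusted p = 1.04e-10), and UGT71C1 (-1.91 ± 0.29) and UGT74E1 (-1.99 ± 0.54) were also lower. UGT80B1 (1.09 ± 0.12), UGT84A3 (1.75 ± 0.59) and UGT85A1 (1.02 ± 0.31) were the largest rises with the same limit. UGT84A3 lost its call without replicate 1 at 0 min (0.165) or replicate 2 at 180 min (0.232), UGT85A1 without replicate 2 at 0 min (0.0607) and UGT74E1 without replicate 3 at 180 min (0.0574). UGT78D1 was lower at 180 than at 0 min in high R/FR in both organs, by -1.73 in hypocotyl and -1.95 in cotyledon on the log2 scale.

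In the authors' deposited table, counted at their own adjusted p under the same threshold, 12 members were higher and 23 lower in hypocotyl at 90 min and 24 and 37 at 180 min. For cotyledon those numbers were 10 and 9 at 90 min and 11 and 19 at 180 min. Of the calls made here, 34 of 45 and 60 of 70 in hypocotyl and 17 of 27 and 28 of 35 in cotyledon were also called in the authors' deposited table in the same direction, and none in the opposite one. At 45 min the authors' numbers were 4 higher and 6 lower in hypocotyl, and 4 and 3 in cotyledon. They shared 5 of the 6 hypocotyl and all 5 cotyledon calls made here. At 15 min, where none was called here, the authors' numbers were 1 higher and 0 lower in hypocotyl, and 2 and 1 in cotyledon.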

How the data were processed

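RNA-seq gene counts of 36 libraries were used as the authors deposited them. The submitters' processing notes name TAIR10 as the build and list, without roles, HTSeq 0.5.4p3, TopHat2 2.0.9, limma 3.18.2, Bowtie, edgeR 3.4.0 and cutadapt 1.2.1 as tools. Per the labels' protocols, seedlings were fixed in acetone, organs were dissected by hand and libraries were made with a stranded TruSeq kit. The authors' deposited tables also hold log2 fold changes and p-values, both raw and adjusted, of the light comparison at each time, used here only where named as the authors'. The log2 group means and the t and signed fold columns (a score) in the authors' deposited tables were not used. Reads in no feature came to 0.811 to 2.89% and ambiguous reads to 0.382 to 0.807%, and both stayed out of library sizes. Non-unique alignments came to 7.24 to 39 per 100 gene counts. The highest was hypocotyl high R/FR 15 min replicate 2, and the next was 20.2. Replicates differed by more than sampling noise (chi-square per degree of freedom 3.64 to 20.08), so none was counted as a duplicate.

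Samples were grouped by organ, light and time from the labels. Counts were fitted with edgeR 4.0.16 in R 4.3.3 (TMM scaling, robust quasi-likelihood, 1 mean per group, a filter at a minimum count of 10 and total of 15), leaving 20126 genes and 18 residual degrees of freedom. TMM factors were 1.185 to 1.29 in hypocotyl and 0.767 to 0.854 in cotyledon. The organ comparison used the 20 high R/FR libraries with organ and time as terms (19825 genes). Calls are at a Benjamini-Hochberg adjusted p under 0.05 over all genes tested. The code was tested on simulated data. CPM used TMM library sizes, and RPKM divided by RefSeq exonic length.

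Positions and sequences are from RefSeq on TAIR10.1, where 20810 of 20811 compared genes overlap their deposited positions. Members, role lists and markers were chosen with earlier results of these data known. Members were named by size of change among called members whose log2 CPM averaged 0 or more, up to 5 each way in each light comparison, up to 3 each way in the response and time comparisons, and up to 6 each way between organs, together with each called member of the role lists. Of the 48 genes on those lists, 36 were members. Others were chosen after their values were seen: UGT71B7, UGT73B1, UGT73B2, UGT73B5, UGT73C4, UGT76E3, UGT78D4, UGT79B8, UGT79B9, UGT85A3, UGT87A1, AT3G10630, HYR1, DGD1 and the members named for low counts or close copies. Alternatives were RLE size factors, DESeq2 1.42.0, no filter on low counts, a replicate block, an organ's own 18 libraries and leaving out each library. Precision is limited by 2 libraries per group. One promoter sequence is not reported here.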

Additional observations from a re-analysis of the deposited data

Results flagged for a closer look

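These members are listed because the test of the difference between the organs' low over high R/FR changes passed (hypocotyl minus cotyledon, log2, ± SE, edgeR quasi-likelihood with Benjamini-Hochberg adjustment over all genes). At 45 min UGT85A2 differed by 0.59 ± 0.14 (adjusted p = 0.0304), and the call was lost in 6 of the 8 fits without 1 library.

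At 90 min the difference was 2.06 ± 0.45 for UGT71C3 (adjusted p = 9.13e-04), 1.91 ± 0.31 for UGT85A1 (2.80e-05) and 1.72 ± 0.14 for UGT85A2 (1.07e-10). It was -3.08 ± 0.33 for UGT84A4 (1.73e-08), -2.30 ± 0.50 for UGT72B2 (7.74e-04) and -1.81 ± 0.17 for UGT71B1 (1.01e-09). UGT71C3 had 4 and 8 counts in low R/FR cotyledons against 18 and 22 in high R/FR. UGT72B2 had 5 and 9 counts in low R/FR hypocotyls against 15 and 14 in high R/FR.

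At 180 min the difference was 2.40 ± 0.64 for UGT90A1 (adjusted p = 2.59e-03), 2.36 ± 0.75 for UGT73B4 (1.05e-02) and 1.98 ± 0.30 for UGT85A1 (3.81e-06). It was -3.45 ± 0.72 for UGT72B2 (2.23e-04), -2.88 ± 0.17 for UGT78D1 (1.54e-13) and -2.84 ± 0.28 for UGT89C1 (1.84e-08). UGT90A1 had 4 and 3 counts in low R/FR cotyledons against 8 and 13 in high R/FR, and UGT73B4 had 11 and 5 against 3 and 9. UGT78D1 and UGT89C1 had higher counts in both organs.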

How the results depend on the processing

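Among 145 named results, 0 changed sign under any alternative run, and 41 lost their call under at least 1, of which 27 lost it only with 1 library left out. DESeq2 lost 5 of these calls, no filter on low counts 8 and an organ's own 18 libraries 7, while RLE size factors and the replicate block lost 1 each. The number of members called stayed within 1.5 times of its main value under every alternative run other than leaving out 1 library, except in cotyledon at 15 min. There it was 1 (UGT85A2) with no filter, with the replicate block, with the cotyledon's own 18 libraries and with DESeq2, against 0 in edgeR with all 36 libraries. With 1 library left out, a lone library is assumed to vary like the other groups. The number called for the light was then 0 to 0 in cotyledon and 0 to 1 in hypocotyl at 15 min, 2 to 5 and 3 to 6 at 45 min, 19 to 25 and 34 to 40 at 90 min, and 26 to 28 and 60 to 65 at 180 min. For the difference between the organs' responses it was 0 to 0, 0 to 1, 28 to 36 and 48 to 53 at the 4 times. For 180 over 0 min hypocotyl gave 40 to 47 and cotyledon 53 to 58 calls. Between organs there were 84 to 88. Replicate numbers were not taken to pair samples, since the labels do not say what a number marks. Correlations of same-numbered deviations ran from -0.026 to 0.073 between lights and from 0.054 to 0.14 between organs. Such small values do not show that samples were unpaired, and in the main fits the tests between organs ignore any pairing. With the replicate block 36 members were called in cotyledon and 70 in hypocotyl at 180 min, and 1 in cotyledon at 15 min. For the light and response comparisons that block shares its terms across times, so it does not test pairing within a time. Members with few counts, such as UGT72B2 in hypocotyl, have wide errors at this depth.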
